A study of Mus musculus with 6 samples.

Results

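The Raet1-H60 locus is a stretch of mouse chromosome 10 that holds a cluster of genes for ligands of the receptor NKG2D. Rows of the deposited table were taken by their GENCODE M21 symbols, and 5 of 54393 rows were members: Gm2539, E030030I06Rik, Raet1e, H60b and Raet1d. They lie between 22074237 and 22374139 of chromosome 10 (GRCm38), a span of 299.9 kb. The members were chosen by their measured difference between the genotypes, which is therefore described here and not tested. The libraries hold ribosome-depleted total RNA of the tibialis anterior, a fast-twitch shin muscle, from adult mice, with 3 wild-type (WT) muscles and 3 muscles of Dock3 knockout (Dock3 KO) mice. Dock3 encodes an activator of the small GTPase Rac. No treatment is given for either group, and the titles of the WT samples begin with C57, while the labels give no strain, allele or sex for the Dock3 KO samples. Strain background and genotype therefore cannot be told apart for these genes.

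NKG2D, encoded by Klrk1, is an activating receptor on natural killer (NK) cells and on some T cells. Its ligands resemble MHC class I molecules, are held at low levels in most healthy tissues, and appear on the surface of cells under stress, infection or transformation. In the mouse they comprise the Raet1 and H60 families and Ulbp1, and the Raet1 and H60 genes differ in number and sequence among inbred strains. Raet1d and Raet1e encode members of the Raet1 family that are anchored to the membrane by a lipid, and H60b encodes a member of the H60 family. E030030I06Rik is annotated as protein-coding and Gm2539 as a transcribed unprocessed pseudogene, a duplicated gene copy that is transcribed but has lost its coding role.

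The set of promoters at RefSeq start sites used here (GRCm38.p6) holds 4 of the 5 members, H60b being absent from it. The 250 bases before the RefSeq start of Gm2539 (chr10:22077671-22077920, plus strand) and of E030030I06Rik (chr10:22149271-22149520, minus strand) are shown because these 2 members were lower in every Dock3 KO muscle. The Gm2539 stretch lies inside the gene as GENCODE M21 places it, with transcripts that start at 22074237, 22089597 and 22100651. It is therefore not directly before any GENCODE M21 start of the row that was counted. Those before the second start of Raet1e (chr10:22173247-22173496, plus strand) and the start of Raet1d (chr10:22361644-22361893, plus strand) are shown because they are near-identical copies. Capitals mark matches on either strand to the TATA box (TATAAA), to the GC box (GGGCGG), to the CCAAT box (CCAAT), to the E-box bound by MyoD (CAGCTG) or to the core of the E2F site (TTCCCGC). No match overlapped another.
Gm2539: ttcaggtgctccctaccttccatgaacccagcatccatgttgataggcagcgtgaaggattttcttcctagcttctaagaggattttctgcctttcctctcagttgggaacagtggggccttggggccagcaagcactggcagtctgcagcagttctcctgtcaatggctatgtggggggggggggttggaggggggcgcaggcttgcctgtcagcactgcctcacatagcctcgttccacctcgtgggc
E030030I06Rik: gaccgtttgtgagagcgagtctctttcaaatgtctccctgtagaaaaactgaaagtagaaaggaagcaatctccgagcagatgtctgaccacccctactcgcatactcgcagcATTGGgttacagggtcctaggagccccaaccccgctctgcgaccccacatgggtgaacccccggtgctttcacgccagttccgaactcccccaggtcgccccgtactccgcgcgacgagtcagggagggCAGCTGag
Raet1e: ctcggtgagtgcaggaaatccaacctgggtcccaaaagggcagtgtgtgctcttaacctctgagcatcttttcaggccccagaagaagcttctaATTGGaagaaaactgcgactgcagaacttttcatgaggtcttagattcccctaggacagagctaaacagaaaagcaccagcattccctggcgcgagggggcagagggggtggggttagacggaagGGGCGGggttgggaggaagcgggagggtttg
Raet1d: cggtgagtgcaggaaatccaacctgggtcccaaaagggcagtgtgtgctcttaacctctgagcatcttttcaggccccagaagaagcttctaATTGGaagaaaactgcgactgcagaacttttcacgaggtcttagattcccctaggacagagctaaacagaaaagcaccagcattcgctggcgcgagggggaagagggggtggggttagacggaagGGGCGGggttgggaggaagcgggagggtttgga
The Raet1e and Raet1d stretches matched at 245 of 252 aligned positions (97.2%), while those of Gm2539 and E030030I06Rik matched at 47.9%, within the range of the other pairs of upstream stretches (46.0% to 51.4%). E030030I06Rik held 1 match to CCAAT, found in 33.8% of 32851 mouse promoters of this length, and 1 to CAGCTG, found in 13.0%. Raet1e and Raet1d each held 1 match to GGGCGG, found in 32.7% of promoters, and 1 to CCAAT. None of the 5 motifs was found before the RefSeq start of Gm2539, and the stretches before its GENCODE M21 starts were not examined. The E030030I06Rik stretch held 16 CpG dinucleotides and the Gm2539 stretch 4, against a median of 6.

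Dock3 was examined first, as a check of the genotype labels. Its values were 169, 161 and 118 normalized counts in the WT muscles (replicates 1, 3 and 4, the order used throughout), against 22.4, 1.78 and 1.54 in the Dock3 KO muscles (replicates 1, 2 and 3). The log2 difference was -4.76 (SE 0.752, limma adjusted p = 0.0140), and the groups did not overlap. The call was lost when WT replicate 1, WT replicate 3, WT replicate 4 or Dock3 KO replicate 2 was left out (limma adjusted p = 0.0651, 0.0771, 0.0591 and 0.0708). Normalized counts summed to between 23520223 and 33393950 per library, and 23860 to 25185 rows were above 0. The highest sums were those of Dock3 KO replicates 1 and 2 (33393950 and 33016889). The most frequent low value of a library was 0.775 to 1.52. Low values were mostly not whole multiples of it, so the reads behind a value of a few normalized counts cannot be given, only that they are few. Muscle fibre markers (Acta1, Ckm, Myh4 and 7 others) were all past the minimum mean. They made up 5.95%, 5.91% and 5.64% of the summed counts in WT, against 4.75%, 4.64% and 5.47% in Dock3 KO, without overlap. Dock3 KO replicates 1 and 2 stood apart in that Gm42418 and Lars2 together took 17.9% and 20.3% of their counts, against 3.00% to 3.64% in the other 4 libraries.

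Gm2539 and E030030I06Rik were the members with the highest values in WT muscle and were far lower in Dock3 KO muscle. Of the normalized counts of all 15 rows in the span, members or not, they made up 67.3% to 69.8% in WT and 2.12% to 5.24% in Dock3 KO. Gm2539 (ENSMUSG00000097739, plus strand, 22074237 to 22103313) was listed at 451, 364 and 491 normalized counts in the WT muscles, against 5.30, 1.44 and 2.33 in the Dock3 KO muscles. Every WT muscle was high and every Dock3 KO muscle was low, with no overlap. The WT mean, 435 ± 65.2 (SD, n = 3), was 144-fold higher than the Dock3 KO mean of 3.02 ± 2.02 (SD, n = 3). This fold rests on very low Dock3 KO values: without Dock3 KO replicate 1 the Dock3 KO mean was 1.88 and the fold 231, and without Dock3 KO replicate 2 the fold was 114. E030030I06Rik (ENSMUSG00000097327, minus strand, 22113050 to 22149270) stood at 498, 482 and 352 in WT, against 17.3, 12.1 and 25.0 in Dock3 KO. Its groups did not overlap either, and its lowest WT value belonged to replicate 4, which had the highest WT value of Gm2539. The means were 444 ± 79.9 (SD, n = 3) and 18.1 ± 6.46 (SD, n = 3), a 24.5-fold difference, and the fold was at most 30.2 when each library was left out in turn (without Dock3 KO replicate 3).

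On the log2(normalized count + 1) scale the fit across all genes gave differences, Dock3 KO minus WT, of -6.87 (SE 0.394) for Gm2539 and -4.58 (SE 0.294) for E030030I06Rik. The Dock3 KO mean stood at 0.695% of the WT mean for Gm2539 and at 4.08% for E030030I06Rik. The listed residual level was thus unequal between these 2 members, but the Dock3 KO values of Gm2539 stand for few reads. The ratio of the Gm2539 row to the E030030I06Rik row, without length correction, was 0.906, 0.754 and 1.39 in WT. It was 0.306, 0.119 and 0.0934 in Dock3 KO. The ratios did not overlap, but they come from the contrast that chose the members, so nothing is read from this. In Dock3 KO replicate 3 alone, which lacked the large Gm42418 and Lars2 share, Gm2539 was at 2.33 and E030030I06Rik at 25.0, both below every WT value. The members were chosen by this contrast, and the part of that share in their values was not tested.

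Per kilobase of the longest annotated transcript, the WT level was 213 normalized counts for E030030I06Rik and 181 for Gm2539. These levels exceeded those of 79.1% and 75.9% of the 16031 genes tested, whose median was 60.3. In Dock3 KO the levels per kilobase were 8.72 and 1.25, above 14.9% and 0.742% of genes tested.

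The 3 members that encode NKG2D ligands were low in both genotypes, at no more than 9.77 normalized counts in any muscle. H60b (ENSMUSG00000075297, plus strand, 22158586 to 22288849) was listed at 2.68, 2.55 and 9.77 in WT, against 1.37, 0 and 1.55 in Dock3 KO. Its groups did not overlap, but the values are low and the highest was that of WT replicate 4. Raet1e (ENSMUSG00000053219, plus strand, 22158569 to 22374139) was listed at 0, 1.48 and 0.718 in WT, against 0.901, 0 and 0 in Dock3 KO. Raet1d (ENSMUSG00000078452, plus strand, 22360552 to 22374139) was listed at 0.971, 0 and 0 in WT, against 5.12, 0 and 0 in Dock3 KO. The groups overlapped for Raet1e and Raet1d, and the 1 value of Raet1d above 1 normalized count came from Dock3 KO replicate 1. No difference in these 2 ligand genes was detectable at this depth.

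**Figure D1:**
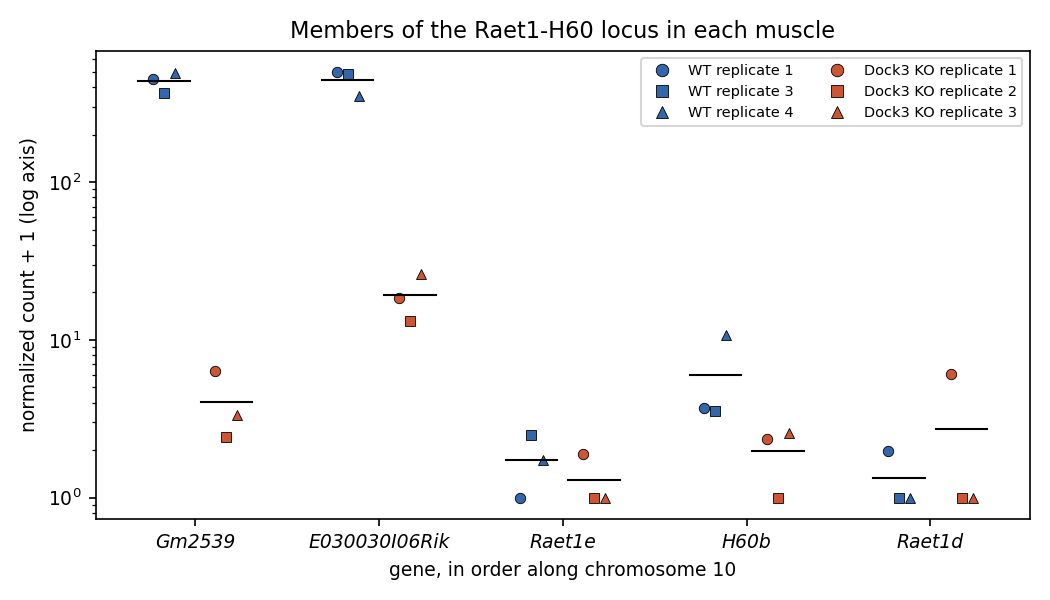
Normalized count plus 1, on a log axis, of the 5 members in each of the 3 WT (blue) and 3 Dock3 KO (orange) muscles, with a bar at each group mean. Gm2539 and E030030I06Rik lie between 352 and 498 in WT and at or below 25.0 in Dock3 KO, while Raet1e, H60b and Raet1d stay below 10 in every muscle.

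Counting members, 2 of 5 passed the minimum mean of 10 normalized counts, and both passed through their WT values. In 3 of 5 every Dock3 KO value was below every WT value, as for 5.92% of the 33678 rows with a mean above 0 and 8.65% of the genes tested, while 5.04% of the rows lay above in every Dock3 KO muscle. Since the choice of members used this contrast, nothing is read from that count. Over all genes tested, 165 of 16031 (1.03%) had a limma adjusted p under 0.05, 0.586% of genes being lower and 0.443% higher in Dock3 KO.

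The ligand genes were also summed, because Raet1d and Raet1e share most of their sequence and reads can be split between their rows. Raet1d and Raet1e together were at 0.971, 1.48 and 0.718 in WT, against 6.02, 0 and 0 in Dock3 KO. The whole family in the table (Raet1d, Raet1e, H60b, H60c and Ulbp1) summed to 13.2, 12.9 and 14.9 in WT and to 17.4, 9.85 and 11.1 in Dock3 KO. These sums overlapped, with means of 13.7 ± 1.06 and 12.8 ± 4.06 (SD, n = 3 each). The sum of the 5 members was instead 886 ± 58.1 in the WT group, against 24.1 ± 9.19 in the Dock3 KO group (SD, n = 3 per group), and Gm2539 and E030030I06Rik made up 98.8% to 99.6% of it in WT.

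The other ligand genes of the family lie elsewhere on chromosome 10. Ulbp1 (7440362 to 7473638, minus strand), which encodes a ligand with a membrane-spanning segment, stood at 9.53, 7.58 and 4.38 in WT, against 9.15, 9.85 and 9.52 in Dock3 KO. The groups overlapped, and the lowest value was that of WT replicate 4. H60c (3256208 to 3267771, minus strand) stood at 0, 1.31 and 0 in WT, against 0.888, 0 and 0 in Dock3 KO. Neither passed the minimum mean, so 0 of 2 were tested with limma, and without that minimum 0 of 2 had a limma adjusted p under 0.05 and 0 an unadjusted p under 0.05. Raet1a, Raet1b, Raet1c and H60a were not matched to any row by symbol.

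Between Gm2539 and E030030I06Rik lies Gm19791 (ENSMUSG00000097214, 22110621 to 22113345, plus strand), an unprocessed pseudogene that is no member. Its values were 79.4, 65.4 and 62.1 normalized counts in the WT muscles, against 0 in each of the 3 Dock3 KO muscles. The difference passed the threshold (limma adjusted p = 0.000743), as it did in 14 of 14 alternatives that tested it (limma adjusted p from 2.2e-05 to 0.020). The test is not independent of the members, since Gm19791 overlaps the end of E030030I06Rik on the other strand and is a near-identical copy of part of Gm2539. The 3 rows that were lower in this way, Gm2539, Gm19791 and E030030I06Rik, are next to each other, and their sum was 1028, 911 and 906 in WT and 22.6, 13.6 and 27.3 in Dock3 KO.

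Farther along the span the direction turned for another pseudogene. Hmgb1-ps8 (22262742 to 22263367, minus strand), a processed pseudogene within the H60b and Raet1e gene bodies, stood at 0, 0.856 and 0.826 in WT, against 49.8, 39.8 and 41.1 in Dock3 KO. It rose, with a log2 difference of 4.88 (SE 0.640, limma adjusted p = 0.00444), and passed in 11 of 14 alternatives (limma adjusted p from 0.00120 to 0.418). With WT values this close to 0 the size depends on the pseudocount, and the log2 difference was 6.61 with a pseudocount of 0.1 and 2.34 with one of 10. The call was lost without Dock3 KO replicate 2 (limma adjusted p = 0.0574), without Dock3 KO replicate 3 (limma adjusted p = 0.0508) and without Dock3 KO replicates 1 and 2 together (limma adjusted p = 0.418). The latter fit leaves 1 Dock3 KO muscle, which is assumed to vary like the WT group. Its parent gene Hmgb1, which encodes a chromatin protein, was listed at 3330, 3212 and 3967 in WT, against 3315, 3362 and 2279 in Dock3 KO. The transcripts are 96.1% identical over 617 bases. Only 48.7% of the 31-base stretches of Hmgb1-ps8 are found in no other gene, and 141 genes share some of its stretches. The value of Hmgb1-ps8 is therefore uncertain as far as reads also fit Hmgb1 or other copies.

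Gm26740, an antisense transcript opposite H60b and Raet1e (22187013 to 22302835, minus strand), had the highest level per kilobase inside the span in Dock3 KO, at 310 normalized counts. It was listed at 354, 264 and 271 in WT, against 436, 557 and 430 in Dock3 KO. The Dock3 KO values all lay above the WT values, but the log2 difference of 0.68 (SE 0.179) did not pass the threshold (limma adjusted p = 0.159). C920009B18Rik, a transcribed unprocessed pseudogene of the span, was listed at 9.39, 60.7 and 1.93 in WT, against at most 15.0 in Dock3 KO, so that 1 WT muscle set its mean. The other 6 rows inside the span that are not members had means under 10, and 2 of them were at 0 in all 6 libraries. Of these low rows, the processed pseudogene Gm26528 ran from 7.68 to 11.7 in WT, against 5.46, 4.88 and 2.31 in Dock3 KO. The processed pseudogene Gm5421 was in turn higher in every Dock3 KO muscle, at 5.55, 7.60 and 14.8 against 2.70, 3.30 and 4.94 in WT.

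**Figure D2:**
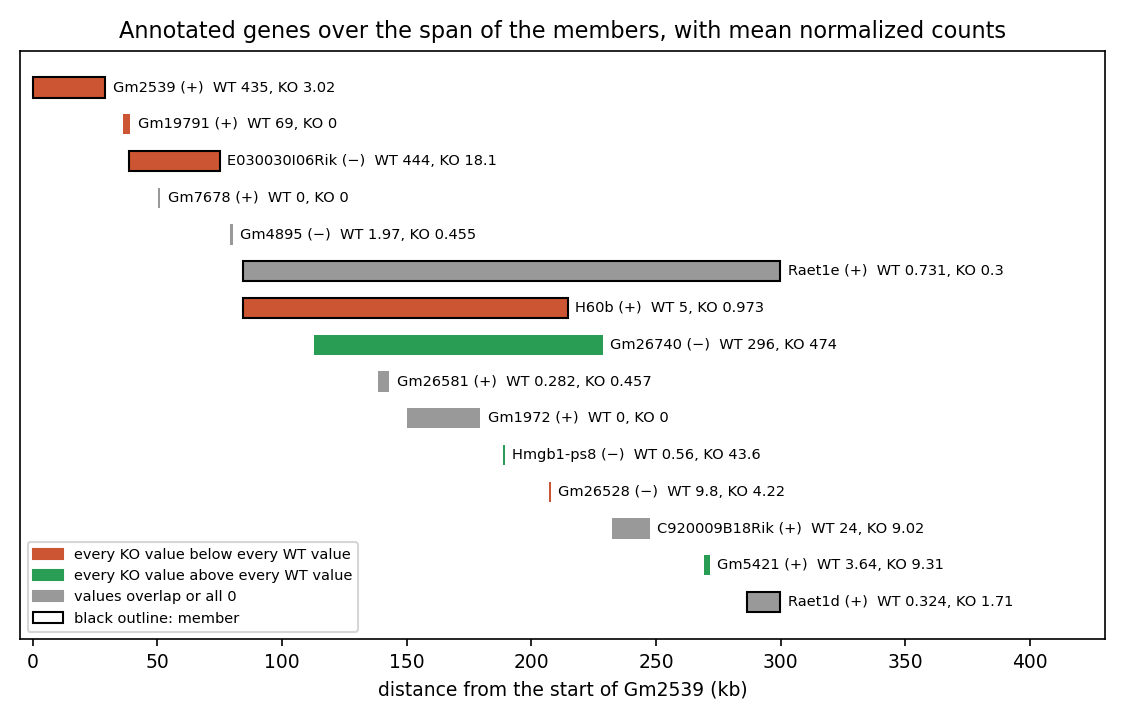
Annotated genes over the span of the members by distance from the start of Gm2539 in kilobases, each with its strand and its mean normalized count in WT and Dock3 KO (n = 3 each). Orange marks genes lower in every Dock3 KO muscle (Gm2539, Gm19791, E030030I06Rik, H60b and Gm26528) and green those higher in every one (Gm26740, Hmgb1-ps8 and Gm5421).

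Genes beyond the span were compared to see how far along the chromosome the difference extends. Within 1 Mb of the members the table holds 48 other rows, and 11 of them were tested. Of these, 2 had a limma adjusted p under 0.05 (Gm19791 lower and Hmgb1-ps8 higher), against 1.03% of all genes tested. An unadjusted p under 0.05 was found for 4 of the 11, and for 1685 of all 16031 genes tested. Both called rows passed the minimum mean through 1 genotype, Gm19791 through WT (mean 69.0) and Hmgb1-ps8 through Dock3 KO (mean 43.6). Gm19791 also shares sequence with the members, so nothing is read from the count of 2. The median log2 difference of the 11 was -0.04, against -0.01 over all genes tested. Of the 7 tested neighbours outside the span, 0 had a limma adjusted p under 0.05, and their log2 differences ran from -0.52 to 0.81.

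The nearest tested gene on the side of Gm2539 was Sgk1, a kinase induced by serum and glucocorticoids, 74.3 kb away. Sgk1 was listed at 4406, 5866 and 5270 in WT, against 3526, 4064 and 3215 in Dock3 KO. Its groups did not overlap, but its log2 difference of -0.52 (SE 0.147) did not pass the threshold (limma adjusted p = 0.194). Next on that side came the long non-coding RNA Gm5420 (0.81, limma adjusted p = 0.543) and Hbs1l, a factor that rescues stalled ribosomes (0.15, limma adjusted p = 0.779), both as log2 differences. On the side of Raet1d the nearest was Slc2a12, a glucose transporter, 271 kb away. Slc2a12 was listed at 312, 352 and 298 in WT, against 235, 295 and 268 in Dock3 KO. Its groups did not overlap either, and 8.65% of genes tested were likewise lower in every Dock3 KO muscle. Its WT mean was 321 ± 27.9 and its Dock3 KO mean 266 ± 29.7 (SD, n = 3 per group), a log2 difference of -0.27 (limma adjusted p = 0.632). Tbpl1, a relative of the TATA-binding protein, and Eya4, a transcriptional co-activator, followed with log2 differences of 0.07 and -0.17 (limma adjusted p = 0.953 and 0.818).

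**Figure D3:**
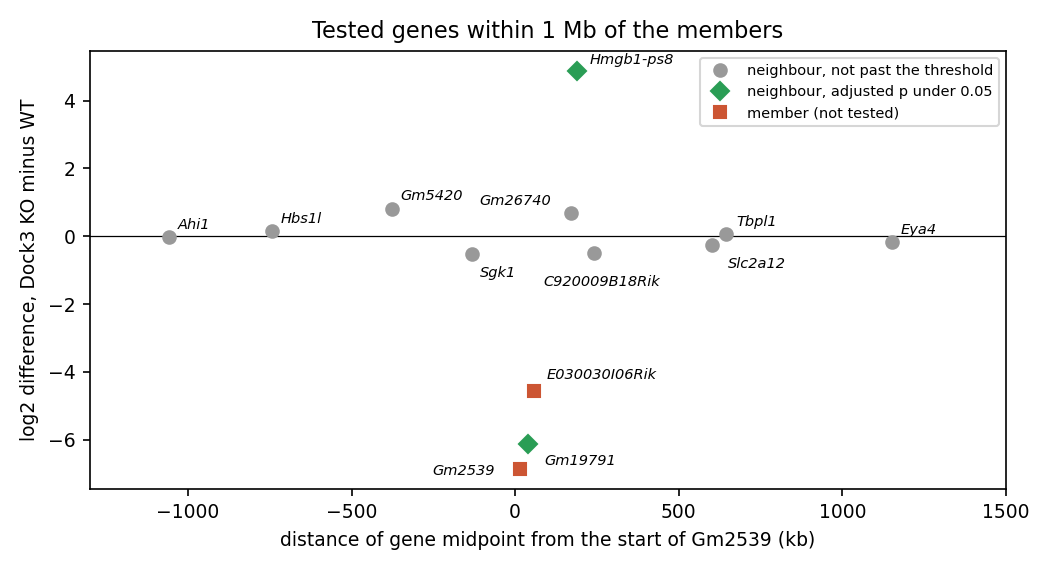
Log2 difference, Dock3 KO minus WT, of the 11 tested neighbours and the 2 members that passed the minimum mean, by distance of the gene midpoint from the start of Gm2539 in kilobases. Gm19791 and Hmgb1-ps8 (green) are past the threshold, the members (orange) are shown untested, and the 7 tested genes outside the span lie between -0.52 and 0.81.

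How well each row can be told from the others was measured on the GENCODE M21 transcripts. Each transcript was divided into 31-base words, and words found in a transcript of any other gene, on either strand, were counted as shared. Of the words of Gm2539, 83.4% were found in no other gene, and of E030030I06Rik 73.5%. H60b had 89.7% such words. Raet1d had 32.9% and Raet1e 44.5%, since 67.1% of the words of Raet1d also occur in Raet1e. Transcripts Raet1d-202 and Raet1e-204 were 96.0% identical over 1437 aligned positions. Values of Raet1d and Raet1e are therefore the least certain among the members, while most annotated words of Gm2539 and E030030I06Rik are their own. Words were pooled over all transcripts of a gene, and which transcript the reads came from is not known. Of the Gm2539 transcripts, Gm2539-203 matches Gm19791 over its whole length of 746 bases, at 96.5% identity.

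Gm2539 is shown beside its copy Gm19791 because both were lower in Dock3 KO and reads can be split between them. Transcript Gm2539-203 was 96.5% identical to Gm19791 over 746 bases, and 43.2% of the words of Gm19791 occur in Gm2539. The stretch of 90 bases without a gap that holds the most mismatches is bases 596 to 685 of Gm2539-203 and 694 to 783 of Gm19791-201, with its 7 mismatches in capitals.
Gm2539: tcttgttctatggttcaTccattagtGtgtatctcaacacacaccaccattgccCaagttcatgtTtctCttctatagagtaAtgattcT
Gm19791: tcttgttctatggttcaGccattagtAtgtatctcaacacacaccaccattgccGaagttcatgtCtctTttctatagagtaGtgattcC
A further copy, the olfactory receptor pseudogene Olfr369-ps1 (chromosome 9, 3233346 to 3236427, plus strand), was 95.9% identical to Gm2539-203 over 418 bases. It was listed at 26.0, 40.5 and 28.8 in WT, against 0 in each of the 3 Dock3 KO muscles. The other near-identical copy of Gm2539, Gm33022, was at 0 in all 6 libraries.

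**Figure D4:**
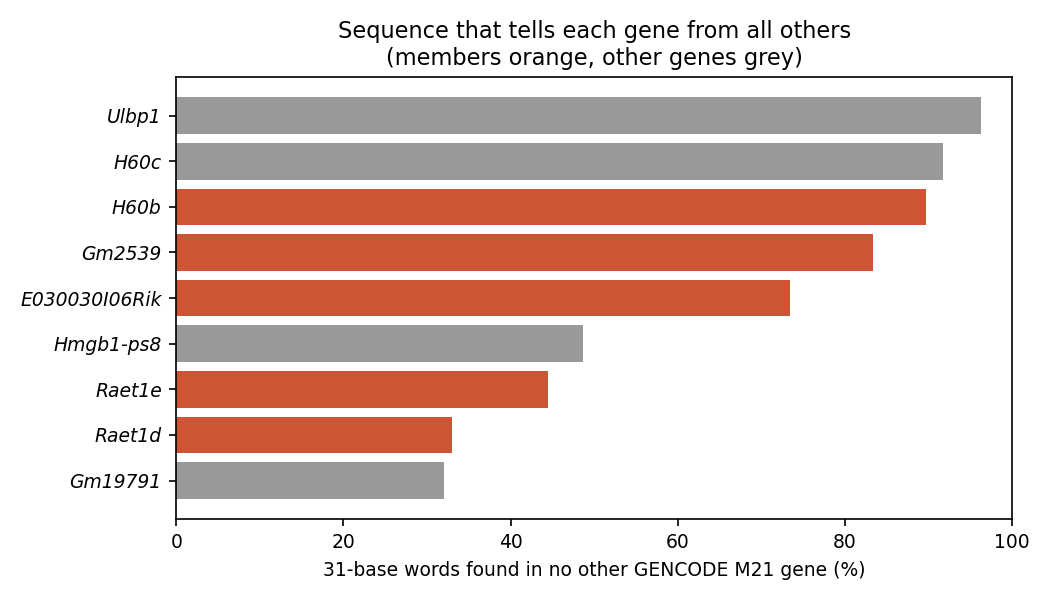
Percent of 31-base words of each gene's transcripts that occur in no other GENCODE M21 gene on either strand, with members in orange and other genes in grey. Raet1d (32.9%) and Raet1e (44.5%) have the lowest shares among the members, and H60b (89.7%) the highest.

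Over the 6 muscles, the profiles most like those of the 2 high members were then listed for genes outside the 1 Mb window. Likeness was the root mean square difference of log2(normalized count + 1) centred on each gene's own mean, and it is a description of genes that share the same 6 libraries. For E030030I06Rik the 3 closest were Olfr369-ps1 (0.42), the processed pseudogene Gm7049 on chromosome 13 (0.49) and Cdk6 on chromosome 5 (0.50), against a median of 2.33 over genes tested. Cdk6, which encodes a cyclin-dependent kinase of the G1 phase, was listed at 571, 626 and 862 in WT, against 20.0, 8.99 and 33.5 in Dock3 KO. Its transcript Cdk6-203 also gave the longest match to E030030I06Rik outside the locus, 85.1% identical over 686 bases, but 2.44% of the words of E030030I06Rik occur in Cdk6. For Gm2539 the 3 closest were Rpl15-ps2 on chromosome 9 (0.58), Hal, the enzyme that begins histidine breakdown, on chromosome 10 at 93488768 to 93519304 (0.62), and Gm11868 on chromosome 4 (0.68), against a median of 3.47. Gm2539 and E030030I06Rik stood at 1.24 from each other, and 51 tested genes outside the window were closer to E030030I06Rik than Gm2539 was.

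On the receptor side of the pathway Klrk1 and Hcst were low in these muscles and Tyrobp was not. Klrk1, the receptor itself, was listed at 0, 0.444 and 11.2 in WT, against 6.54, 12.0 and 6.50 in Dock3 KO, with overlap. Hcst, its signalling adaptor, was listed at 0, 1.69 and 3.23 in WT, against 0 in each of the 3 Dock3 KO muscles, and the groups overlapped at 0. Tyrobp, an adaptor that myeloid cells also use, was listed at 73.6, 94.9 and 96.3 in WT, against 119, 58.6 and 76.4 in Dock3 KO (log2 difference -0.11, limma adjusted p = 0.947). Its WT level per kilobase was 148 normalized counts, above the median of 60.3 over genes tested. In bulk muscle, fewer cells of a type and less RNA per cell cannot be told apart.

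The 13 NK cell markers summed to 8.95 to 20.9 normalized counts in WT and 10.8 to 33.7 in Dock3 KO, and none of the 13 was at 0 in all libraries. Their means were higher in Dock3 KO for 8 of 13 and lower for 5, and the groups overlapped for 12. The exception was Prf1, which encodes perforin and was at 0 in all WT muscles and at 1.41, 4.55 and 2.32 in Dock3 KO. The defining NK gene Ncr1 was at 0 in all WT muscles and at 2.77, 1.54 and 0 in Dock3 KO, while Tbx21, a transcription factor of NK and T cells, had a mean of 6.94 in WT and 4.66 in Dock3 KO. The 10 T cell markers summed to 29.0 to 49.3 in WT and 24.1 to 56.9 in Dock3 KO. Of these 10, the mean was higher in Dock3 KO for 6 and lower for 4, and the groups overlapped for 7. Cd4 and Cd3g, with means of 2.53 and 3.96 in Dock3 KO, were higher in every Dock3 KO muscle, as were 5.04% of rows with a mean above 0. Cd8a, with a mean of 7.81 in WT and 2.53 in Dock3 KO, was lower in every one, as were 5.92% of those rows. Of the 26 receptor, NK and T cell genes 2 were tested, Tyrobp and Cd247, and 0 passed with limma, adjusted or at an unadjusted p under 0.05. Without the minimum mean 0 of 26 passed after adjustment. An unadjusted p under 0.05 was then found for 2 of 26, against 2466 of the 33678 rows with a mean above 0.

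Other cell types were checked by the same kind of lists. Macrophage markers summed to 6507 to 7295 in WT and 5527 to 6445 in Dock3 KO, without overlap, and 0 of 10 passed the threshold. Their means were lower in Dock3 KO for 9 of 10 and higher for 1. In 2 of the 10 every Dock3 KO value was below every WT value, as for 8.65% of genes tested. Fibroblast markers summed to 29407 to 30371 in WT and 33926 to 39128 in Dock3 KO, without overlap, and 1 of 5, Col1a1, which encodes a chain of type I collagen, rose, from 3688, 3799 and 1954 in the WT muscles to 7278, 7411 and 8958 in the Dock3 KO muscles (log2 difference 1.38, SE 0.235, limma adjusted p = 0.0228). Its call held in 9 of 15 alternatives (limma adjusted p from 0.00289 to 0.30) and was lost when Dock3 KO replicate 1, Dock3 KO replicate 2 or Dock3 KO replicate 3 was left out (limma adjusted p = 0.0559, 0.0856 and 0.0915). The fibroblast list went both ways: the means of Col1a2, another type I collagen chain, were 5260.5 in WT and 9502 in Dock3 KO (log2 difference 0.88, limma adjusted p = 0.0537), whereas those of Dcn and Lum, proteoglycans of the matrix, were 18572 and 1067 in WT and 15522 and 781 in Dock3 KO (log2 differences -0.28 and -0.48, limma adjusted p = 0.654 and 0.545). None of the markers of either list was at 0 in all libraries. Their part in the values of the members was not tested. The sums of endothelial, adipocyte, Schwann cell and red cell markers overlapped between genotypes.

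None of the tested genes from a list of 17 linked to NKG2D ligand expression passed the threshold. The list holds kinases and effectors of the DNA damage response, E2F factors, heat shock genes, Toll-like receptor genes and Hdac3, a histone deacetylase. Of 17 genes 16 were tested, and 0 had a limma adjusted p under 0.05, with a median log2 difference of 0.10. Of the 16, 3 had an unadjusted p under 0.05, against 1685 of all 16031 genes tested, and nothing is read from that count. Chek2, a DNA damage kinase, was listed at 41.6, 32.4 and 36.5 in WT, against 79.4, 102 and 42.8 in Dock3 KO (log2 difference 0.92, limma adjusted p = 0.375). E2f2, a factor of the cell cycle, was listed at 128, 113 and 91.9 in WT, against 131, 31.6 and 30.3 in Dock3 KO (log2 difference -1.11, limma adjusted p = 0.472). Trp53 and its target Cdkn1a had log2 differences of 0.00 and -0.17 (limma adjusted p = 0.999 and 0.813).

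Dock3 KO replicate 1 decided the calls on this list. The heat shock gene Hspa1b was listed at 102, 97.2 and 87.2 in WT, against 77.4, 403 and 386 in Dock3 KO, and its copy Hspa1a at 167, 119 and 94.7 in WT, against 86.3, 447 and 511 in Dock3 KO. In both genes Dock3 KO replicate 1 lay below every WT muscle while Dock3 KO replicates 2 and 3 lay above them. Without that library 3 genes passed, Hspa1b and Hspa1a with log2 differences of 2.04 and 1.94 (limma adjusted p = 0.00175 and 0.00920) and E2f2 with -1.80 (limma adjusted p = 0.0242). The 3 Dock3 KO values of Gm2539 and of E030030I06Rik all lay below WT, but these members were chosen by that contrast, so nothing is read from this. A link between the heat shock genes and the members was not tested.

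**Figure D5:**
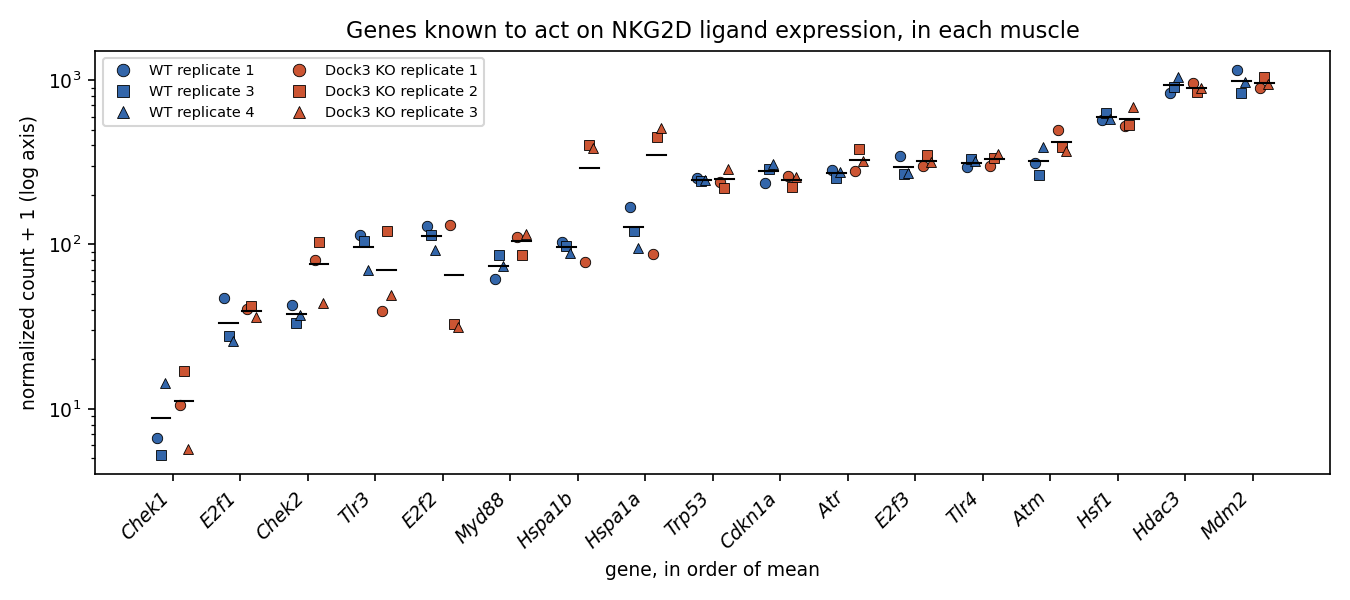
Normalized count plus 1, on a log axis, of the 17 genes listed for a link to NKG2D ligand expression, in order of their mean, in each of the 3 WT (blue) and 3 Dock3 KO (orange) muscles with a bar at each group mean. The groups overlap for 16 of 17 genes, Chek2 being the exception, and for Hspa1b and Hspa1a Dock3 KO replicate 1 (77.4 and 86.3) lies apart from Dock3 KO replicates 2 and 3.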

How the data were processed

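The authors deposited 1 table of normalized counts for 54393 mouse genes in 6 libraries, recorded as a signal since they are not whole numbers. The submitters' processing notes name Trim Galore 0.4.5, Salmon 0.12.0, DESeq2 1.22.1 and R 3.5.3 with the builds mm10 and GRCm38, without roles. The use of strand in counting is not given in the sources used here. Whole reads were not recovered: only 20% to 34% of values under 30 times the most frequent low value were whole multiples (within 0.02) of it, so precision rests on 3 libraries per group. Nothing says that these come from separate animals, so p-values measure the spread between these samples.

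All 54393 rows matched GENCODE M21 identifiers. Genes with a mean of at least 10 (16031) were compared on log2(normalized count + 1) with limma 3.58.1 in R 4.3.3 (prior variance with trend) and Benjamini-Hochberg adjustment over all of them. Its steps were first tested on simulated data with known changes. Transcripts were compared with blastn 2.17.0 (near-identical: at least 95% identity over 50% of the shorter transcript and 100 bases), and 31-base words with Python 3.11.15.

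Members and lists were chosen with earlier results of these data known. Named are Dock3, the members, the ligand family, called and nearest neighbours, called genes of the lists or else Klrk1, Hcst and Tyrobp, and the 3 closest profiles per high member. Other genes (Gm26740, C920009B18Rik, Hmgb1, Gm33022, Gm26528, Gm5421, Ncr1, Prf1, Tbx21, Cd247, Cd4, Cd3g, Cd8a, Col1a2, Dcn, Lum, Chek2, E2f2, Hspa1a, Hspa1b, Trp53 and Cdkn1a) were named after their values were seen. Same-numbered samples did not pair (correlations of deviations 0.0649 and 0.00663).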

Additional observations from a re-analysis of the deposited data

How the results depend on the processing

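The log2 differences of E030030I06Rik and Gm2539, given as a description since the choice of members used them, ranged from -4.84 to -4.02 and from -7.31 to -5.10 over the alternatives, the smallest being those with a pseudocount of 10. Over all genes 165 were called, against 104 (94 of them among the 165) with a prior variance without trend and 56 (50 among the 165) when Dock3 KO replicates 1 and 2 were dropped (leaving out each library in turn gave 100 to 159, the count being 100 when WT replicate 4 was dropped and 102 when Dock3 KO replicate 2 was). Rescaling to the same total shifted the median of all genes to -0.28 and the share of calls that were higher to 23.2%, against 43.0%. The neighbours past the threshold, 2 within 1 Mb, were 0 with a minimum mean of 50, which removes both genes, 1 without Dock3 KO replicates 1 and 2, and 1 to 2 when each library was left out. Stress genes past the threshold ranged from 0 to 3 when each library was left out. Dock3 stayed at -4.76 without trend but missed the threshold (limma adjusted p = 0.123), and ranged from -5.81 to -4.21 when each library was left out, missing it in 4 of 6. The replicate block leaves 1 residual degree of freedom and pairs samples by their number alone. With it 127 genes were called, 2 of them neighbours, and Dock3 stood at -4.43. Summing the members with the whole ligand family moved the log2 difference of the sum from -5.22 to -4.71. The cause of these shifts was not tested where the setting itself does not give it.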
